A study of Mus musculus with 6 samples.

Results

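Neurexins, neuroligins and Lrrtm proteins are adhesion proteins that join the presynaptic and the postsynaptic membrane, and 9 of their genes were read from the hippocampal RNA of WT and TG mice. The members were taken by gene symbol from the 54532 genes of the deposited table. They are 2 neurexin genes (Nrxn2 and Nrxn3), 3 neuroligin genes (Nlgn1, Nlgn2 and Nlgn3) and 4 Lrrtm genes (Lrrtm1, Lrrtm2, Lrrtm3 and Lrrtm4), and other members of these families were not analysed here. The TG mice are knock-in mice that carry the G82R and L85P changes of Slc1a2, the gene of the astrocytic glutamate transporter GLT-1, made with CRISPR/Cas9 on a C57BL/6N background, and the WT mice are the littermates without them. The labels name no treatment beside the genotype, and the zygosity, age and sex of the sequenced mice are not given in the sources used here. There were 3 WT and 3 TG libraries, named by group and replicate number (WT1, TG1 and so on), and the values of a group are listed in the order of these numbers. The labels number the mice without saying whether a library holds 1 animal, so p-values measure the spread between these libraries.

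Neurexins sit on the axon terminal, and each neurexin gene makes a long alpha form and a short beta form from separate promoters. Neuroligins and Lrrtm proteins sit on the dendrite and bind neurexins across the cleft. Nlgn1 is known from excitatory synapses, Nlgn2 from inhibitory synapses and Nlgn3 from both, whereas Lrrtm proteins are known from excitatory synapses. In the hippocampus, Lrrtm4 is best known from dentate granule cells, where it binds glypicans and other heparan sulfate proteoglycans. The values are FPKM, the reads on a gene divided by its length and by the size of the library, which are summed over all isoforms of a gene, so alpha and beta forms cannot be separated.

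The 6 libraries held between 16081281 and 18751057 reads on genes. Slc1a2 itself was at 202, 199.5 and 177 FPKM in WT and 222, 207 and 217 in TG libraries, and FPKM do not show the bases of the introduced changes. All TG values of Slc1a2 exceeded all WT values, without passing (log2 fold change 0.16, adjusted p = 0.789 in limma), and groups lay apart in 12.1% of all genes. The paper reports GLT-1 protein, which is not measured here, as nearly lost from the hippocampus of TG mice. Of 109 marker genes in 15 lists, none was at 0 in all libraries. Markers of CA pyramidal cells summed to between 315 and 365 FPKM in WT and between 317 and 349.6 in TG libraries, and those of dentate granule cells to between 101 and 124 and between 94.97 and 106, with Neurod6 and C1ql2 as their most abundant genes. Markers of the choroid plexus, the tissue of the brain ventricles that secretes cerebrospinal fluid, summed to 83.0, 58.2 and 73.4 in WT libraries, but to 1221 in TG1, 3858 in TG2 and 66.6 in TG3. Oligodendrocyte markers summed to between 673 and 843 in WT libraries and to 523 in TG1, 722 in TG2 and 775 in TG3. Fold changes of the 9 members and the counts of genes called were also computed without TG1 and TG2 together, but the shares, ratios, levels and single partner genes were not.

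All 9 members were expressed and tested, with 257 to 7150 reads per gene and library. None differed between WT and TG at an adjusted p under 0.05 in limma, with adjusted p-values from 0.786 to 0.965, where 2 of all 20952 genes tested (0.00955%) did, and none did with voom on the recovered reads. At an unadjusted p under 0.05, 1 of the 9 members passed, Lrrtm4, which was lower in TG, against 5.91% of all genes in either direction and 2.78% lower in TG. In 2 members, Lrrtm4 and Nlgn1, all TG values were below all WT values, which was the case for 5.71% of all genes. No member had all TG libraries above all WT libraries, and groups lay apart in either direction in 12.1% of all genes. The fold change was below 0 in 3 members, Lrrtm4, Nlgn3 and Nlgn1, and above 0 in 6, where 50.4% of all genes were below 0. The median log2 fold change was 0.035 over the members and -0.00197 over all genes tested. In bulk tissue, fewer cells of a type and less RNA per cell cannot be told apart.

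**Figure D1:**
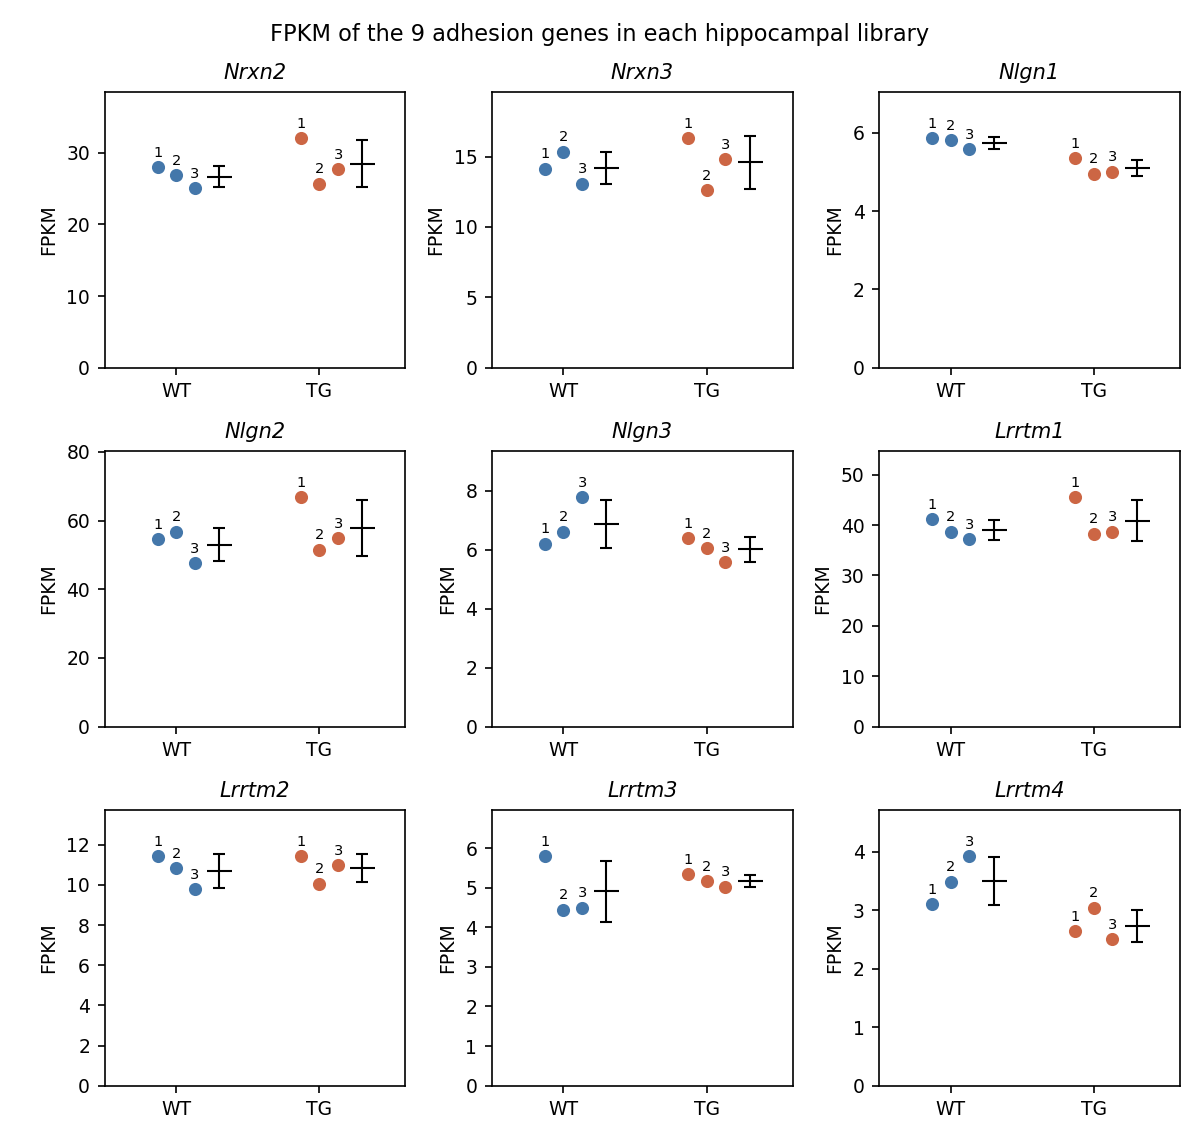
FPKM (vertical axis, from 0) of each of the 9 genes in the 3 WT (blue) and 3 TG (orange) libraries, with replicate numbers beside the points and the mean and SD of each group as a black bar. Only in Nlgn1 and Lrrtm4 do the TG points all lie below the WT points.

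The levels of the members spanned a range of 17.8-fold, and they are compared as FPKM, which are per length. The places of Nlgn3, Lrrtm4 and Nlgn1 also depend on how reads on bases shared with another gene were counted, which is not stated. These bases are 41.2% of the exonic bases of Nlgn3, 25.1% of those of Lrrtm4 and 9.16% of those of Nlgn1. Nlgn2 was highest with a mean FPKM of 55.4 over the 6 libraries, above 96.2% of the genes tested. Lrrtm1 followed with 39.9, Nrxn2 with 27.6, Nrxn3 with 14.4 and Lrrtm2 with 10.8, and none of these ranges over libraries overlapped the next. Nlgn3 had a mean of 6.44, Nlgn1 of 5.43 and Lrrtm3 of 5.05. Nlgn3 lay above Nlgn1 within each of the 6 libraries although their ranges overlapped, and Nlgn1 lay above Lrrtm3 in 4 of 6, so this last pair did not differ beyond its spread. Lrrtm4 was lowest with 3.12, still above 54.0% of the genes tested.

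The neurexin genes did not differ between the groups by more than the spread of the libraries. Nrxn2 (ENSMUSG00000033768, chromosome 19 from 6418731 to 6544169, build GRCm38) had an FPKM of 27.999, 26.9 and 25.1 in WT and of 32.1, 25.7 and 27.7 in TG libraries. TG1 was the highest library and WT3 the lowest, and the groups overlapped. Its log2 fold change was 0.092 (standard error 0.0956), and the 95% interval of the TG to WT ratio ran from 0.912 to 1.24 (limma, adjusted p = 0.816). The value rested on single libraries, since it was 0.0035 without TG1, 0.048 without WT3 and 0.16 without TG2. Nrxn3 (ENSMUSG00000066392, chromosome 12 from 88722876 to 90334935) had 14.1, 15.3 and 13.1 in WT libraries and 16.3, 12.6 and 14.8 in TG libraries, with the highest and the lowest value both in TG. Its log2 fold change was 0.035 (standard error 0.111, ratio interval 0.855 to 1.23), and without TG1 it was -0.049 and without WT3 -0.022. Nrxn2 made up 63.6% to 66.4% of the summed FPKM of both genes in WT and 65.1% to 67.1% in TG libraries, so the balance of these neurexin genes overlapped as well. With each library corrected for gene length and GC content, both fold changes turned below 0, to -0.072 for Nrxn2 and -0.078 for Nrxn3.

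Of the neuroligins, Nlgn1 was lower in each TG library than in any WT library, whereas the values of Nlgn2 and Nlgn3 overlapped between the groups. Nlgn1 (ENSMUSG00000063887, chromosome 3 from 25426215 to 26332460) had an FPKM of 5.87, 5.81 and 5.58 in WT and of 5.35, 4.95 and 5.004 in TG libraries. The gap between the lowest WT and the highest TG library was smaller than the range within TG. The means were 5.75 ± 0.153 in WT and 5.10 ± 0.215 in TG libraries (SD, n = 3 each), on 1136 to 1457 reads. The log2 fold change of -0.17 (standard error 0.0787) had an adjusted p of 0.786 and an unadjusted p of 0.0656 in limma, and the ratio interval of 0.782 to 1.01 included no difference. The fold change was below 0 under all 19 alternative settings, from -0.21 to -0.14, with an unadjusted p under 0.05 in 4 of them. Without TG1 and TG2 it was -0.20 in the remaining TG3.

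Nlgn2 (ENSMUSG00000051790, chromosome 11 from 69823122 to 69837784), the neuroligin of inhibitory synapses, had an FPKM of 54.6, 56.7 and 47.5 in WT and of 66.9, 51.5 and 55.0 in TG libraries. TG1 stood above all others and WT3 below all others. On the log2 scale the fold change was 0.12 (standard error 0.116, adjusted p = 0.800 in limma, ratio interval 0.899 to 1.31), and it was 0.010 without TG1. Nlgn2 carried 78.1% to 82.1% of the summed FPKM of the 3 neuroligin genes in WT libraries and 82.4% to 85.1% in TG libraries. The share of Nlgn1 was 8.80%, 8.40% and 9.16% in WT and 6.80%, 7.93% and 7.63% in TG libraries. The ratio of Nlgn2 to Nlgn1 was accordingly 9.30, 9.77 and 8.52 in WT and 12.5, 10.4 and 10.98 in TG libraries, without overlap. The ratio of Lrrtm1 to Lrrtm4 was 13.2, 11.1 and 9.48 in WT and 17.3, 12.6 and 15.5 in TG libraries. That of Nrxn2 to Nrxn3 was 1.98, 1.75 and 1.92 in WT and 1.96, 2.04 and 1.87 in TG libraries. Both of these overlapped between the groups. The ratio of Nlgn2 to Nlgn1 was chosen after the values were seen and is given without a test or a share over other gene pairs.

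Nlgn3 (ENSMUSG00000031302, chromosome X from 101299168 to 101325963) had an FPKM of 6.21, 6.60 and 7.79 in WT and of 6.39, 6.05 and 5.58 in TG libraries. WT3 was the highest library, and TG1 lay within the WT range. The log2 fold change was -0.19 (standard error 0.108, adjusted p = 0.789 in limma, ratio interval 0.738 to 1.05). Without WT3 it was -0.092, and with a score of the oligodendrocyte markers as a covariate it was -0.32 with an unadjusted p of 0.0351. Since Nlgn3 lies on the X chromosome, sex-linked transcripts were read in the same libraries. The Y-linked gene Ddx3y had an FPKM between 10.6 and 12.3 in all 6 libraries, and the X inactivation transcript Xist was at most 0.0181. The other Y-linked genes were present in all libraries too, Eif2s3y at 5.15 to 10.03, Kdm5d at 1.22 to 1.63 and Uty at 1.41 to 1.69. All 6 libraries thus had the transcript pattern of male mice, although the labels do not give the sex. Of the exonic bases of Nlgn3, 41.2% are also annotated to Gm21986, a transcript on the same strand with an FPKM of at most 0.0909, so the reads of this stretch depend on a counting rule that is not stated.

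**Figure D2:**
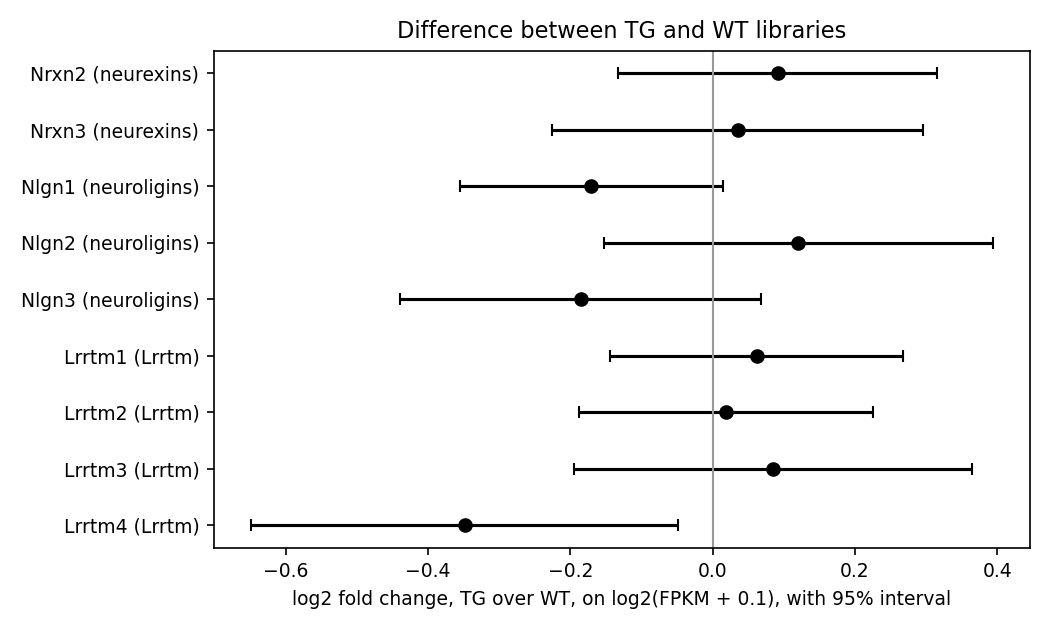
Log2 fold change of TG over WT (horizontal axis, on log2(FPKM + 0.1)) for each gene (vertical axis), with the 95% interval from limma as a bar. The interval of Lrrtm4 lies below 0, from -0.65 to -0.05 before adjustment, and the other 8 intervals include 0.

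Among the Lrrtm genes, Lrrtm4 had the largest difference of all members. Lrrtm4 (ENSMUSG00000052581, chromosome 6 from 80018877 to 80810143) had an FPKM of 3.11, 3.48 and 3.93 in WT and of 2.64, 3.04 and 2.504 in TG libraries. The lowest WT library and the highest TG library lay close together, and TG3 was the lowest of all. The means were 3.51 ± 0.411 in WT and 2.73 ± 0.278 in TG libraries (SD, n = 3 each), and the reads were 353, 346 and 452 in WT and 257, 335 and 278 in TG libraries. The log2 fold change was -0.35 (standard error 0.128), a TG to WT ratio of 0.785 with an interval of 0.638 to 0.967. The unadjusted p was 0.0285 and the adjusted p was 0.786 in limma, so the difference did not pass over all genes. Of the genes tested, 3.06% had a p as small as that of Lrrtm4 or smaller.

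The lower value of Lrrtm4 was also measured where particular libraries were left out. The log2 fold change lay between -0.43 without WT1 and -0.27 without WT3, and the unadjusted p was above 0.05 without WT2 (0.0695), WT3 (0.0842), TG1 (0.0806) or TG3 (0.0968). In TG3 alone, the TG library whose choroid plexus markers were at the WT level, it was -0.46 against the 3 WT libraries. TG3 was also the lowest library for Lrrtm4, so this value was bound to be larger in size than that over all TG libraries, and with 1 TG library only the WT libraries supply a spread. A score of the choroid plexus markers as a covariate gave a log2 fold change of -0.46 (standard error 0.184, unadjusted p = 0.0425 in limma). Since these markers were high in TG1 and TG2 only, this fit separates choroid plexus content from genotype mainly through TG3. Correction for gene length and GC content gave -0.31 (unadjusted p = 0.0361), and the oligodendrocyte score as a covariate gave -0.40 (unadjusted p = 0.0581). Of the 6 dentate granule cell markers, 2 were lower at an unadjusted p under 0.05 in limma, against 2.78% of all genes, namely Calb1, a calcium-binding protein (log2 fold change -0.31), and Tdo2, an enzyme of tryptophan breakdown (log2 fold change -0.45). The other 4 lay on both sides of 0, with log2 fold changes of -0.16 for C1ql2, -0.090 for Prox1, a transcription factor of granule cells, 0.014 for Dsp and 0.43 for Pdzd2. The list's median deviation from the WT mean was -0.13, 0.21 and -0.086 in WT and -0.21, 0.0057 and -0.15 in TG libraries. The part of granule cell content in the Lrrtm4 value was not tested.

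The start of Lrrtm4 and the outer start of Nlgn1, the members whose groups lay apart, are each covered by a gene on the opposite strand. Such cover is not particular to them, since Lrrtm1, Lrrtm2 and Lrrtm3, whose groups overlapped, lie wholly inside opposite-strand genes. For Lrrtm4 the covering gene is Gm4409, which shares 25.1% of the exonic bases of Lrrtm4 and was listed at 0 in all libraries. For Nlgn1 it is A830092H15Rik, which shares 9.16% and had a mean FPKM of 0.260 in WT and 0.254 in TG libraries. The strand setting of the counting is not given in the sources used here, so reads on these bases may belong to either gene or be left uncounted. RefSeq windows of 300 bases, from 250 before to 50 after a start in GRCm38.p6, were read for 6 of the 9 members. This count does not show whether the members left out have such windows. The windows read include 2 each for Lrrtm4 and Nlgn1. The outer window of each of these genes, which lies inside the antisense neighbour, is shown with that of Nlgn2, the most abundant member, because they differ in base composition. Capitals mark matches on either strand to 6 motifs. Of the 32851 windows of this length that were read, 13.6% held TATAAA, 37.4% held CCAAT, 35.7% held GGGCGG, 20.8% held TGACG, 7.15% held CACGTG and 17.2% held CAGATG. They read 5′ to 3′ on the strand of the gene.
Lrrtm4, chr6:80018627-80018926, plus strand: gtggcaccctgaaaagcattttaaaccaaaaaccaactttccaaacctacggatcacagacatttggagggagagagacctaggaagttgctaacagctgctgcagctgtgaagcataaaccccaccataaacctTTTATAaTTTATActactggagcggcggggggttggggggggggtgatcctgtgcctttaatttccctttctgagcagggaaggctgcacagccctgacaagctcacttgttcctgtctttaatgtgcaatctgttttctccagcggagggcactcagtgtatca
Nlgn1, chr3:26331860-26332159, minus strand: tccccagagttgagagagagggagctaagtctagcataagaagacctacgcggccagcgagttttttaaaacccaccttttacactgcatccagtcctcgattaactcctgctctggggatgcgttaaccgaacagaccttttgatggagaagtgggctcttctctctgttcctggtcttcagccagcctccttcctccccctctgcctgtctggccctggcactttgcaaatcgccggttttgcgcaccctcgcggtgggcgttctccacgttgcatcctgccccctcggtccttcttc
Nlgn2, chr11:69837735-69838034, minus strand: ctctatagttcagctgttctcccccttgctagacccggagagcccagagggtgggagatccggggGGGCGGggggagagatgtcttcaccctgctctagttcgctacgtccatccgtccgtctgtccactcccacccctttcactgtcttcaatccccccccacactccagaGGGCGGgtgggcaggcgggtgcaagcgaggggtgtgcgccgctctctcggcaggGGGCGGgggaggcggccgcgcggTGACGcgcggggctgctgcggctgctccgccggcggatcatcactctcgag

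The outer Lrrtm4 window held TATAAA at 2 places and 4 CG dinucleotides, and 48.7% of its bases were G or C. The other Lrrtm4 window, also inside Gm4409, held none of the 6 motifs, with 9 CG dinucleotides and 53.3% G or C. The outer Nlgn1 window held none of the 6 motifs, with 14 CG dinucleotides and 55.7% G or C. The other Nlgn1 window, outside the antisense gene, held CCAAT at 1 place, with 6 CG dinucleotides and 44.7% G or C. The Nlgn2 window held GGGCGG at 3 places and TGACG at 1, with 26 CG dinucleotides and 68.7% G or C, against a median of 7 CG dinucleotides and 52.7% over all windows. A match is a description of these letters and not of a bound factor.

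The other Lrrtm genes had similar values in both groups. Lrrtm1 (ENSMUSG00000060780, chromosome 6 from 77242689 to 77257791), which like Lrrtm2 binds neurexins, had an FPKM of 41.1, 38.7 and 37.2 in WT and of 45.6, 38.3 and 38.7 in TG libraries. TG1 was the highest library and the other TG libraries lay within the WT range. Its log2 fold change was 0.062 (standard error 0.0879, adjusted p = 0.866 in limma, ratio interval 0.905 to 1.204), and it was -0.019 without TG1. Lrrtm2 (ENSMUSG00000071862, chromosome 18 from 35209011 to 35215024) had 11.4, 10.8 and 9.80 in WT and 11.4, 10.1 and 10.98 in TG libraries. Its log2 fold change of 0.019 was the smallest of the members (standard error 0.0879, adjusted p = 0.965 in limma, ratio interval 0.878 to 1.17), and it was -0.042 without WT3 and -0.022 without TG1. Lrrtm3 (ENSMUSG00000042846, chromosome 10 from 63928472 to 64090277), which is close to Lrrtm4 in its binding of proteoglycans, had 5.80, 4.44 and 4.50 in WT and 5.34, 5.17 and 5.03 in TG libraries. The TG values were close together and inside the WT range, with a log2 fold change of 0.084 (standard error 0.119, adjusted p = 0.865 in limma, ratio interval 0.873 to 1.29). WT1 was the highest library, and the fold change was 0.21 without it, 0.019 without WT2 and 0.027 without WT3.

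Lrrtm1 carried 66.9% to 67.4% of the summed FPKM of the 4 Lrrtm genes in WT libraries and 67.7% to 70.1% in TG libraries. The share of Lrrtm4 was 5.05%, 6.06% and 7.08% in WT and 4.06%, 5.38% and 4.38% in TG libraries, with TG2 above WT1. The summed FPKM of the Lrrtm genes was 61.5, 57.5 and 55.5 in WT and 65.0, 56.5 and 57.2 in TG libraries, and that of the neuroligins 66.7, 69.2 and 60.9 in WT and 78.6, 62.5 and 65.5 in TG libraries. Both sums overlapped between the groups and were highest in TG1.

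Lrrtm1, Lrrtm2 and Lrrtm3 each lie inside an alpha-catenin gene and on its opposite strand. Alpha-catenins link cadherins to actin. Only Lrrtm2 shares exonic bases with its host, 1.58% with Ctnna1. Ctnna1, the host of Lrrtm2, had an FPKM of 16.5, 15.7 and 15.4 in WT and of 17.2, 21.3 and 16.8 in TG libraries, so all TG values exceeded all WT values (log2 fold change 0.21, adjusted p = 0.788 in limma). It was highest in TG2, the library with the most choroid plexus RNA, and the part of that tissue was not tested. Ctnna2, the host of Lrrtm1, had a mean of 15.7 in WT and 15.3 in TG libraries, and Ctnna3, the host of Lrrtm3, was low with 0.174 and 0.178.

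Within a library the members did not move together, since log2 deviations from the WT mean in TG1 ran from -0.39 (Lrrtm4) to 0.34 (Nlgn2). TG1 held the highest value of the 6 libraries in 4 members (Nrxn2, Nrxn3, Nlgn2 and Lrrtm1) and WT1 in 3 (Nlgn1, Lrrtm2 and Lrrtm3). The lowest value lay in WT3 in 4 members (Nrxn2, Nlgn2, Lrrtm1 and Lrrtm2). The shares of all genes that were highest or lowest in these libraries were not computed. Relative to the WT mean on the log2 scale, the median of the 9 members was 0.048, 0.013 and -0.086 in WT and 0.13, -0.084 and 0.041 in TG libraries, while that of all genes tested lay between -0.00495 and 0.00148. WT3 was at the same time the highest library for Nlgn3 and Lrrtm4. These libraries also differed with base composition. Among the fifth of all genes with the highest GC content, from 55.3% upward, the median deviation was 0.062 in TG1 and -0.015 in WT3, and among the fifth with the lowest, up to 43.7%, it was -0.078 in TG1 and 0.031 in WT3. By their longest transcript, Nrxn2 and Nlgn2 had 62.4% and 60.7% GC, while Nlgn1, Lrrtm2 and Lrrtm4 had 38.9%, 38.4% and 38.4%. Lrrtm1, Nlgn3, Nrxn3 and Lrrtm3 lay between with 54.7%, 49.3%, 47.5% and 44.5%. In TG1 and WT3, Nlgn1 deviated by -0.10 and -0.043, Lrrtm2 by 0.099 and -0.12 and Lrrtm4 by -0.39 and 0.17. The part of base composition in these deviations was not tested.

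**Figure D3:**
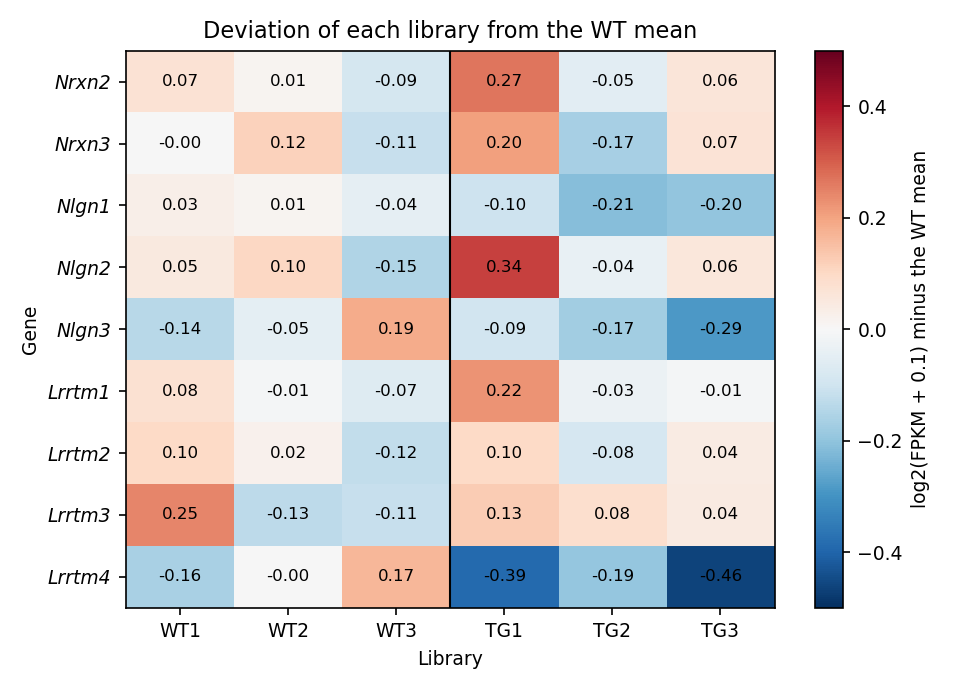
Deviation of each gene (rows) in each library (columns) from the WT mean on log2(FPKM + 0.1), with the value in each cell, red above and blue below the mean. Nlgn1, Nlgn3 and Lrrtm4 are below the mean in all 3 TG libraries, from -0.095 to -0.46, and the neurexins, Nlgn2 and Lrrtm1 are highest in TG1.

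Genes that work with these adhesion proteins were read from 8 lists. Of 64 partner genes, 63 were tested and none passed at an adjusted p under 0.05 in limma or with voom. At an unadjusted p under 0.05, 2 were higher and 1 was lower in TG, or 4.76%, against 5.91% of all genes. The groups lay apart in 9 of the 63 genes (14.3%), 4 higher and 5 lower in TG, against 12.1% of all genes, and the median log2 fold change was 0.026. Among the 12 other ligands of neurexins, those at an unadjusted p under 0.05 were Cbln2 and Dag1, both higher in TG. In C1ql3 of the same list, all TG values were below all WT values (log2 fold change -0.14, unadjusted p = 0.0739 in limma). Cbln2, a secreted bridge between neurexins and glutamate receptors of the delta type, had an FPKM of 3.57, 3.57 and 3.58 in WT and of 4.89, 3.87 and 4.88 in TG libraries, and all TG values exceeded all WT values (log2 fold change 0.33, adjusted p = 0.786 in limma). Dag1, the dystroglycan gene, had 19.2, 17.3 and 15.1 in WT and 21.5, 20.03 and 19.5 in TG libraries, again without overlap (log2 fold change 0.25, adjusted p = 0.786 in limma). The most abundant of this list was Clstn3, a calsyntenin, with means of 70.0 ± 2.73 and 73.9 ± 7.48 (SD, n = 3 each).

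Of the 9 heparan sulfate proteoglycans, the class that Lrrtm4 binds, 8 were tested and 1 passed at an unadjusted p under 0.05. This was Gpc3, a glypican, with 2.88, 2.07 and 2.26 in WT and 2.00, 1.80 and 1.19 in TG libraries, all TG values below all WT values (log2 fold change -0.52, adjusted p = 0.786 in limma). Gpc4, the glypican best known as a partner of Lrrtm4, had means of 18.6 ± 2.67 in WT and 18.3 ± 1.48 in TG libraries (SD, n = 3 each), and Sdc3 was the most abundant with means of 37.7 and 40.2. The Mdga proteins cover the neurexin-binding face of neuroligins, and neither of their 2 genes passed, with log2 fold changes of 0.095 for Mdga1 and 0.026 for Mdga2.

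None of the 13 intracellular scaffold genes passed at an unadjusted p under 0.05. The smallest p of this list was that of Apba1, a presynaptic adaptor (log2 fold change 0.24, unadjusted p = 0.0620 in limma), and the most abundant was Dlg4, the gene of PSD-95, with 58.6 ± 0.970 in WT and 60.7 ± 4.88 in TG libraries (SD, n = 3 each). Gphn, the gene of gephyrin, which binds Nlgn2 at inhibitory synapses, had a log2 fold change of -0.028. The 3 STAR-family splicing factors, which set an alternative exon of neurexins, had fold changes below 0, and all TG values were below all WT values for Khdrbs1 (log2 fold change -0.13) and Khdrbs2 (-0.24), although neither passed (unadjusted p = 0.134 and 0.165 in limma) and 5.71% of all genes lay apart in this way. Khdrbs3, the most abundant of them, had means of 47.3 and 45.3 with overlapping groups. Of the 3 proteases that shed neuroligins or neurexins, Adam10 was the most abundant, with means of 16.9 and 18.1 and a log2 fold change of 0.097. The 19 genes of the LAR phosphatase system, a parallel set of synaptic adhesion proteins, had a median log2 fold change of -0.0086, with the smallest p for Ptprf (log2 fold change 0.38, unadjusted p = 0.102 in limma) and the highest level for Lrrc4b, with means of 81.3 and 80.6.

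**Figure D4:**
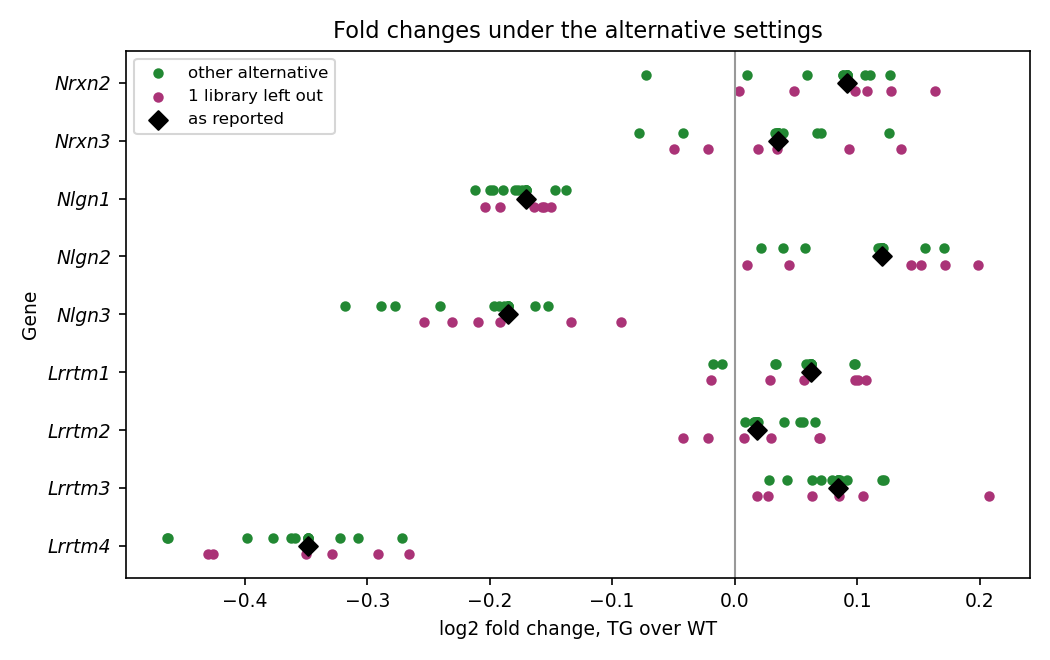
Log2 fold change of TG over WT (horizontal axis) for each gene (vertical axis) as reported (black diamond), with 1 library left out (purple) and under the other alternatives (green). Lrrtm4, Nlgn1 and Nlgn3 stay below 0 at every point, and Nrxn2, Nrxn3, Lrrtm1 and Lrrtm2 have points on both sides of 0.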

How the data were processed

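Hippocampal RNA-seq of 3 WT and 3 TG libraries was used. The authors counted reads per gene with HTSeq 0.6.0 and deposited them as FPKM, 1 column per library, for GRCm38 (mm10 in the labels). The aligner and the strand setting are not given in the sources used here, and labels and methods name different extraction and library kits. Of the gene identifiers, 54409 were in GENCODE M21 and 53499 had the same start and end. The deposited gene length equalled the annotated exonic bases for 8 of the 9 members. FPKM times gene length gave whole reads for 100% of values (tolerance 0.05 reads), and 3 reads on 1 kb correspond to an FPKM of 0.160 to 0.190. Such limits cover counting error only.

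The 20952 genes whose mean FPKM reached 0.1 were compared on log2(FPKM + 0.1) with limma 3.58.1 in R 4.3.3 (lmFit, eBayes with trend, no covariate), two-sided, with Benjamini-Hochberg adjustment over all genes and a threshold of 0.05. Intervals are at 95%. The pseudocount makes fold changes of low genes too small. The fit was tested on simulated data with changes larger than those of the members, so that test does not cover differences of their size.

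Members and gene lists were chosen with earlier results of these data known. Named were all members, the most abundant gene and the gene with the smallest p of each partner list, the alpha-catenin genes and sex-linked genes. Other named genes (Dag1, C1ql3, Gpc4, Mdga2, Gphn, Khdrbs2, Khdrbs3, single cell type markers and the genes overlapping members) were chosen after their values were seen. Alternatives were pseudocount, filter, scaling, variance model, voom on recovered reads, left-out libraries, replicate block and marker scores as covariates, and, chosen after seeing the data, a correction for gene length and GC content.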

Additional observations from a re-analysis of the deposited data

How the results depend on the processing

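No member and no partner gene passed at an adjusted p under 0.05 under any of the 19 alternatives. The number of all genes called, 2 as reported, was 0 with a pseudocount of 0.01 or 1, without a filter, with voom on recovered reads, with a marker score of choroid plexus or oligodendrocytes as a covariate and without TG1 and TG2 together, 1 with a mean FPKM of at least 1, 9 without the trend, and between 0 and 6 with 1 library left out. The number of members at an unadjusted p under 0.05, 1 as reported, was 2 with voom and with the correction for length and GC content (Lrrtm4 and Nlgn1 in each), 0 without TG1 and TG2 together, where only the WT libraries supply a spread, and between 0 and 1 with 1 library left out. Without WT3 or TG1 the member counted was Nlgn1 in place of Lrrtm4, and without WT2 or TG3 there was none. With the oligodendrocyte score the member counted was Nlgn3 in place of Lrrtm4.

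Lrrtm4, Nlgn1, Nlgn3, Nlgn2 and Lrrtm3 kept the sign of their fold change under all 19 alternatives. With the correction for length and GC content, Nrxn2 turned to -0.072 and Nrxn3 to -0.078. With the oligodendrocyte score, Nrxn3 turned to -0.042 and Lrrtm1 to -0.018, and in TG3 alone Lrrtm1 was at -0.010. With 1 library left out, the log2 fold change ranged from -0.049 to 0.14 for Nrxn3, from -0.019 to 0.11 for Lrrtm1 and from -0.042 to 0.070 for Lrrtm2. As reported, these 4 fold changes were smaller than their standard errors, and the cause was not tested.

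With the replicate number as a block (replicate block), 0 of all genes were called and Lrrtm4 had an unadjusted p of 0.0462. The deviations of same-numbered libraries from their group means had correlations of 0.0125, 0.0434 and 0.00314. Those of differently numbered libraries lay between -0.0274 and 0.0159. All were near 0, so they do not settle whether the numbers pair the samples. With 3 libraries a group, the 95% intervals of the members reach from 0.638 (Lrrtm4) to 1.31 (Nlgn2) as TG to WT ratios, and no detection limit was measured.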
